A study of Mus musculus with 4 samples.

Results

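A set of 10 genes whose products make or remove superoxide, hydrogen peroxide and nitric oxide, or answer to the stress they cause, was followed on arrays of mouse colon. They were *Duox2*, *Duoxa2*, *Nox1*, *Noxo1* and *Nos2* on the producing side, and *Gpx1*, *Gpx2*, *Sod2*, *Hmox1* and *Nqo1* on the side of defense. Every probe that the array files name after 1 of the 10 genes was used, which gave 14 probes of 39423. Of the 22368 genes named on the arrays, 10 are therefore described here. *Duox2*, *Duoxa2*, *Nox1* and *Hmox1* have 2 probes each and the other 6 genes have 1. All 14 probes were well above background on all 4 arrays, by the scanner software's own call for each spot.

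Each of the 4 arrays held RNA pooled from the colons of 3 to 5 male mice at 42 weeks of age, by the deposited description. The published methods differ on the pool size and name 4 mice. The mice were *Pla2g3*+/+ (WT) or *Pla2g3*-/- (KO) littermates of a mixed B6.129 background at backcross generation 3, and *Pla2g3* encodes group III secreted phospholipase A2, an enzyme that releases fatty acids and lysophospholipids from membranes. They were given vehicle or azoxymethane (AOM), an alkylating agent used to raise tumors in the colon, at 10 mg/kg by weekly intraperitoneal injection for 6 weeks, and colons were removed 28 weeks after the last dose. The deletion is not limited to a cell type, the labels call the tissue of the AOM pools colorectal cancer and that of the vehicle pools normal colon, and the study's own text gives whole descending colon for both. The 4 pools are written here as WT vehicle, KO vehicle, WT AOM and KO AOM after their labels.

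As background, DUOX2 and NOX1 are the NADPH oxidases of colon epithelium. DUOX2 releases hydrogen peroxide at the luminal surface and needs DUOXA2 to leave the endoplasmic reticulum, whereas NOX1 makes superoxide and needs the organizer NOXO1, an activator and p22phox. NOS2 is the inducible nitric oxide synthase. Superoxide dismutase 2 turns superoxide into peroxide in mitochondria, GPX1 and GPX2 reduce peroxide with glutathione, and GPX2 is largely an enzyme of the gut epithelium. HMOX1 breaks down heme, NQO1 reduces quinones, and the genes of both are known targets of the transcription factor NRF2.

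Signals are given relative to the 75th percentile of the array, called scaled signal. A difference between 2 arrays is a log2 ratio of scaled signals with the scanner software's error, which for the 14 probes was between 10.0% and 19.5% of the signal of a spot and covers the array only, not the mice. With 1 array per pool there was no replicate and no test, and 2-fold is the threshold used. Scaled signals of different probes depend on the probe and are not set against each other. The 75th percentile itself was 646 and 649.9 with vehicle and 1309 and 1169 with AOM, between 64.8% and 69.4% of 43020 spots were well above background, and no spot was saturated. *Pla2g3*, the targeted gene, went against the labels. Its brightest probe had scaled signals of 0.531 in WT vehicle, 0.656 in KO vehicle, 0.232 in WT AOM and 1.40 in KO AOM, so every direction given below is that of pools labeled WT or KO. Which part of the gene was deleted is not given in the sources used here, and a probe outside that part would check nothing. In pooled tissue, fewer cells of a type and less RNA per cell cannot be told apart.

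Epithelium markers were read on all 4 arrays, which does not check the colon label against other parts of the gut. All 10 colon epithelium markers, among them *Krt20*, *Cdx2* and *Lgals4*, were above background everywhere, with summed scaled signals of 909, 916, 491 and 802 in WT vehicle, KO vehicle, WT AOM and KO AOM. *Cdx2* had 9.06, 12.3, 0.751 and 2.20 in the same order. WT AOM and KO AOM stood apart in other lists. In WT AOM, 8 smooth muscle markers summed to 31.2 against 498 to 542 on the other arrays, 7 surface colonocyte markers to 28.2 against 290 to 601, and 8 Wnt targets of colon tumors to 49.0 against 5.72 to 6.49. In KO AOM, the B and plasma cell markers summed to 5.03 against 38.6 to 70.4, and 6 squamous epithelium markers to 23.8 against 6.01 to 7.49, of which *Krt5*, a basal keratin, had 15.3 against 0.0266 to 0.0561. The 3 Paneth cell markers on the array summed to 73.8 in WT AOM against 5.97 to 29.4. *Itln1*, 1 of them, did not share that peak, with 20.6 in WT vehicle and 18.8 in WT AOM. Of the 10 pancreatic acinar markers, 8 were over 2-fold higher in KO vehicle than in WT vehicle and none lower, beside 1.92% and 1.32% of all genes. The median log2 ratio of the 10 was 4.98, bounds included. Their sums were 67.3 in KO vehicle and 2.37 to 32.2 elsewhere. Most of the 32.2, in WT vehicle, came from *Cela1* (16.5) and *Clps* (15.3), which were not higher in KO vehicle. How far such differences in tissue content enter the ratios below was not tested.

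With vehicle, none of the 10 genes passed 2-fold between KO and WT. Their log2 ratios lay between -0.24 for *Duox2* and 0.66 for *Nos2*, with 5 above 0 and 5 below, and a median of 0.04 beside -0.02 over all 16391 genes with a value. In this comparison, 1.92% of all genes passed 2-fold on the higher side and 1.32% on the lower side. Over the 15471 genes above background on both vehicle arrays the SD of the log2 ratio was 0.36, and the ratios of *Nos2* (0.66 ± 0.21) and *Nqo1* (0.45 ± 0.20) were the only ones of the 10 beyond that SD on the brightest probe. The dimmer probe of *Duox2* gave -0.82 ± 0.33, with scaled signals of 0.0636 in WT and 0.0360 in KO.

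After AOM the genes separated. In KO AOM relative to WT AOM, 4 of 10 were over 2-fold lower (*Duoxa2*, *Nos2*, *Gpx2* and *Hmox1*), beside 12.9% of all genes. No gene of the 10 was over 2-fold higher, beside 15.1% of all genes. The median log2 ratio of the 10 was -0.78, whereas that of all 17194 genes was 0.03. In WT AOM relative to WT vehicle, *Nos2* and *Hmox1* were over 2-fold higher, beside 15.1% of all genes, and *Nqo1* over 2-fold lower, beside 22.4%. In KO AOM relative to KO vehicle, *Duoxa2*, *Nox1*, *Gpx1*, *Gpx2*, *Hmox1* and *Nqo1* were over 2-fold lower, 6 of 10 genes beside 15.1% of all, and no gene of the 10 was over 2-fold higher, beside 9.64%. Without scaling between arrays, *Hmox1* alone of these 6 passed 2-fold, *Duox2* was over 2-fold higher (1.32), and *Nqo1* in WT AOM was at -0.49 from WT vehicle. The KO/WT comparison after AOM shares 1 array with each of the AOM/vehicle comparisons.

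**Figure D1:**
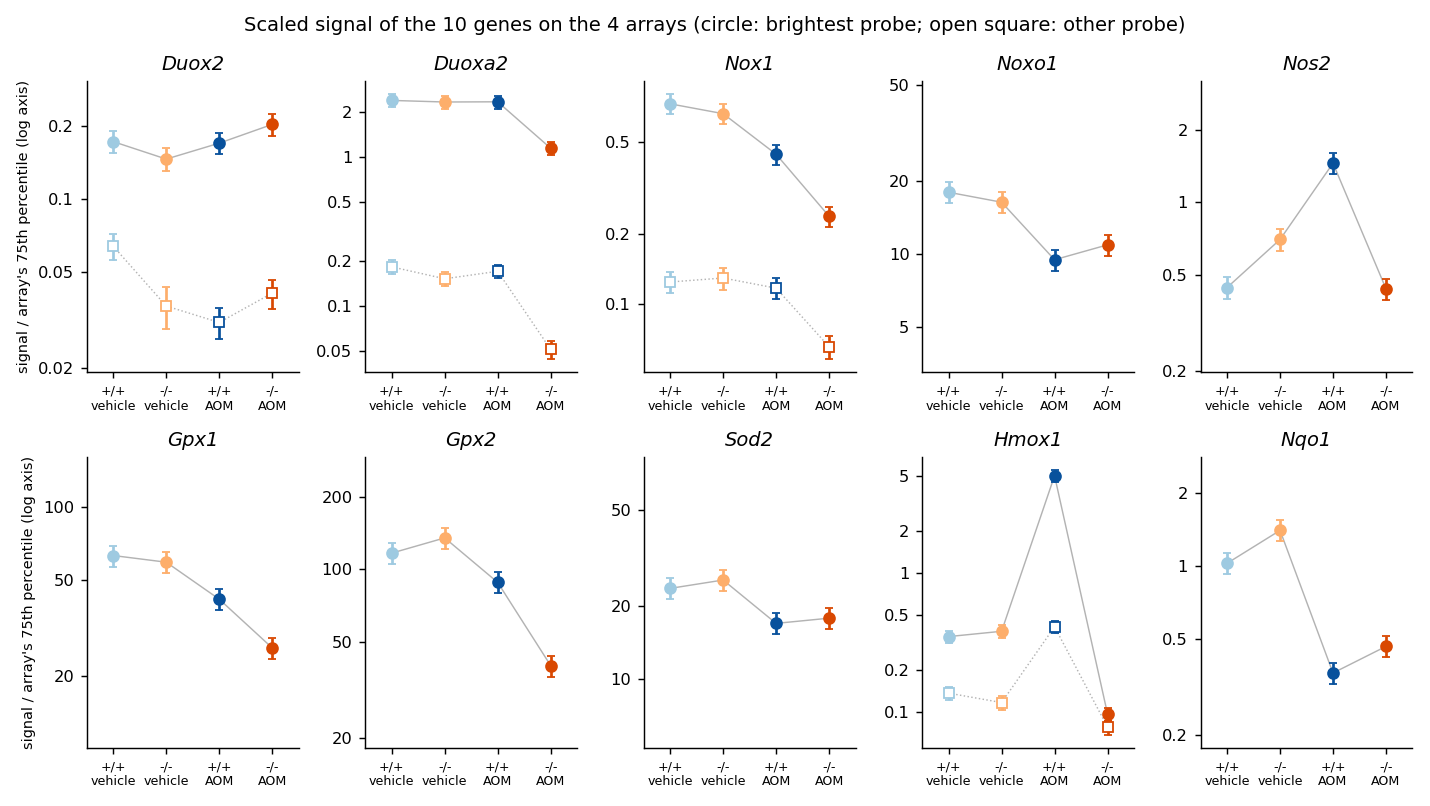
Scaled signal (spot signal over the 75th percentile of its array, log axis) of each gene on the 4 arrays, 1 panel per gene. Filled circles are the brightest probe, open squares the other probe where there is one, and bars the scanner error. *Hmox1* and *Nos2* peak in WT AOM, while *Duoxa2*, *Nox1*, *Gpx1* and *Gpx2* are lowest in KO AOM.

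Among the peroxide-producing pair, *Duox2* and its maturation factor *Duoxa2* did not move alike. The brightest *Duoxa2* probe (mm9, chromosome 2, 122128268 to 122128327) had scaled signals of 2.41 in WT vehicle, 2.35 in KO vehicle, 2.36 in WT AOM and 1.15 in KO AOM. The first 3 arrays were thus within the scanner error of each other, and KO AOM was lower, by -1.04 ± 0.20 against WT AOM and -1.03 ± 0.20 against KO vehicle. The other *Duoxa2* probe (122128562 to 122128621) had 0.183, 0.152, 0.171 and 0.0511 in the same order, or -1.74 ± 0.25 and -1.58 ± 0.25 for those ratios. Both probes of *Duoxa2* therefore placed KO AOM lowest.

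*Duox2*, the oxidase itself, had scaled signals of 0.172 in WT vehicle, 0.146 in KO vehicle, 0.170 in WT AOM and 0.203 in KO AOM on its brightest probe (chromosome 2, 122106173 to 122106232). KO AOM was the highest of the 4, with log2 ratios of 0.26 ± 0.21 against WT AOM and 0.48 ± 0.21 against KO vehicle. On the dimmer probe (122109146 to 122109205), which the files place on an Ensembl transcript, the scaled signals were 0.0636, 0.0360, 0.0308 and 0.0407. That probe put WT AOM over 2-fold below WT vehicle, at -1.05 ± 0.27, where the brightest gave -0.02 ± 0.21. The probes thus disagreed on WT AOM against vehicle, and both placed KO AOM above WT AOM. Other scalings were tried on the brightest probe only. There this order turned with scaling by the epithelium markers (-0.69), and with the spike-in controls the ratio was -0.03, within the scanner error.

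The genes of this pair are neighbors that are read in opposite directions. In GRCm38.p6, the RefSeq promoter windows of *Duox2* (minus strand, chr2:122298178-122298477) and *Duoxa2* (plus strand, chr2:122298650-122298949) reach from 250 bases before to 50 bases after each start site and leave 172 bases between them. They are shown because the signals of these neighbors differed in KO AOM. Capitals mark the letters TATAAA, searched on both strands, which are found in 13.6% of 32817 such windows of the mouse genome.
Duox2 promoter window: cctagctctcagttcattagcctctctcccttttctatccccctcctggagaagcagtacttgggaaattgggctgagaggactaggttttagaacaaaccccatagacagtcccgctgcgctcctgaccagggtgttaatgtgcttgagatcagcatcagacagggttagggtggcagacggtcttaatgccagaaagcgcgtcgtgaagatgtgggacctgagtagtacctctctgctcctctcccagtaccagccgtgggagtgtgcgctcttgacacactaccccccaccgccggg
Duoxa2 promoter window: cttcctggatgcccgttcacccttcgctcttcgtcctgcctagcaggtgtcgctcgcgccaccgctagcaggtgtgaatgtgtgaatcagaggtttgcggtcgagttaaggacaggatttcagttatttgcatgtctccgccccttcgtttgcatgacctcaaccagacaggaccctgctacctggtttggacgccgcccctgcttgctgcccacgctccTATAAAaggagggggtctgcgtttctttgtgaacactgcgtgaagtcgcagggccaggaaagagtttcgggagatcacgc
The *Duoxa2* window holds TATAAA from 30 to 25 bases before the start site and the *Duox2* window does not hold it. Neither window holds TTCNNNGAA, the STAT motif (8.29% of all windows), TGACNNNGC, the core of the antioxidant response element (12.4%), or the consensus of the kappaB motif (8.46%). A match of letters is a description of these windows and shows no binding.

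*Nox1*, the superoxide-producing oxidase, had scaled signals of 0.730 in WT vehicle, 0.662 in KO vehicle, 0.442 in WT AOM and 0.238 in KO AOM on the brighter probe (chromosome X, 130621740 to 130621799). The vehicle pools were alike and KO AOM was lowest, at -1.47 ± 0.21 against KO vehicle and -0.89 ± 0.21 against WT AOM. The dimmer probe (130627582 to 130627641) gave 0.124, 0.129, 0.117 and 0.0650, or -0.99 ± 0.23 and -0.84 ± 0.22. It put WT AOM at -0.09 ± 0.21 from WT vehicle, where the brighter probe gave -0.72 ± 0.20. The probes are printed because both placed KO AOM lowest, and they read separate stretches of the transcript, the dimmer at its listed start 1486 and the brighter at 1723.
Nox1 probe, listed start 1486: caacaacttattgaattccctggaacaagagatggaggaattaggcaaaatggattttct
Nox1 probe, listed start 1723: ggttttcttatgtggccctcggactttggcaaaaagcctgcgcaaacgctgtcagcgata

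*Noxo1*, the organizer that NOX1 needs, did not share the low value of *Nox1* in KO AOM. Its scaled signals were 18.0 in WT vehicle, 16.4 in KO vehicle, 9.48 in WT AOM and 10.9 in KO AOM (chromosome 17, 24837201 to 24837260). Both AOM pools were below both vehicle pools, with -0.93 ± 0.20 in WT and -0.59 ± 0.20 in KO, though other scalings turned these signs (up to 0.21 and 0.26). The AOM pools differed by 0.20 ± 0.20. Of the other genes of the oxidase complexes, the NOX1 activator *Noxa1* went the same way as *Noxo1*, with 8.86, 9.36, 2.69 and 3.47. *Cyba*, which encodes p22phox, had 26.2, 31.6, 36.3 and 11.2, lowest in KO AOM. *Duoxa1*, the maturation factor of DUOX1, had 0.0603, 0.101, 0.194 and 0.327, and *Duox1* was above background in KO AOM alone, at least 5.51-fold above WT AOM.

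*Nos2* had scaled signals of 0.445 in WT vehicle, 0.703 in KO vehicle, 1.45 in WT AOM and 0.439 in KO AOM (chromosome 11, 78773567 to 78773626). WT AOM was highest, 3.27-fold above WT vehicle (1.71 ± 0.20) and 3.31-fold above KO AOM, a KO/WT log2 ratio of -1.73 ± 0.20. KO AOM stood at the level of WT vehicle and below KO vehicle, by -0.68 ± 0.21, a sign that turned without scaling (0.17). Within vehicle the KO pool was 1.58-fold higher, at percentile 96.7 of all genes, and after AOM the KO/WT ratio was at percentile 6.42. Most markers of macrophages, cells that also express *Nos2*, moved with it. Of the 10, 9 were above background on every array and *Cd163* on none. The summed scaled signals of the list were 14.1, 16.9, 30.6 and 13.0 in WT vehicle, KO vehicle, WT AOM and KO AOM. Of the 9, 8 were over 2-fold lower in KO AOM than in WT AOM, beside 12.9% of all genes. The ninth, *Mrc1*, was highest in KO AOM, with 0.458, 0.715, 1.22 and 1.58. The sums of other lists, such as the Wnt targets and the erythroid markers, also peaked in WT AOM. The part of macrophages or of these lists in the *Nos2* values was not tested.

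On the side of removal, both glutathione peroxidases were lowest in KO AOM. *Gpx2* had scaled signals of 117 in WT vehicle, 135 in KO vehicle, 88.3 in WT AOM and 40.0 in KO AOM (chromosome 12, 77893402 to 77893461). KO AOM was lowest, 3.37-fold below KO vehicle (-1.75 ± 0.20, percentile 4.21 of all genes) and 2.21-fold below WT AOM (-1.14 ± 0.20). *Gpx1*, read by the probe printed here because it gave a smaller difference in the same direction, had 63.1, 59.2, 41.6 and 26.2 (chromosome 9, 108242276 to 108242335).
Gpx1 probe, listed start 647: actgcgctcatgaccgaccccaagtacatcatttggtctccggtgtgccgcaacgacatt
For *Gpx1*, KO AOM was 2.26-fold below KO vehicle (-1.18 ± 0.20) and 1.59-fold below WT AOM (-0.67 ± 0.20). WT AOM was below WT vehicle for both genes but short of 2-fold, at -0.60 ± 0.20 for *Gpx1* and -0.40 ± 0.20 for *Gpx2*, and other scalings turned these signs (up to 0.54 and 0.73). The mean of the 10 epithelium markers did not share this order, though single markers went both ways. The mean log2 ratio between KO AOM and WT AOM was 0.95, with a range from -0.39 to 2.09, and between KO AOM and KO vehicle it was -0.16. *Krt18*, a keratin of simple epithelium, had 109, 103, 101 and 77.3 and was lowest in KO AOM, as *Gpx1* was. Taken relative to that mean, *Gpx2* stood at -2.09 and *Gpx1* at -1.62 between the AOM pools.

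*Sod2*, the mitochondrial dismutase that makes the peroxide these enzymes remove, had 23.8 in WT vehicle, 25.7 in KO vehicle, 17.0 in WT AOM and 17.9 in KO AOM (chromosome 17, 13208074 to 13208133). Both AOM pools were lower than both vehicle pools by about the same step, -0.48 ± 0.20 in WT and -0.52 ± 0.20 in KO, though other scalings turned these signs (up to 0.66 and 0.32). Between the genotypes, the log2 ratios of 0.11 ± 0.20 with vehicle and 0.07 ± 0.20 after AOM were within the scanner error. The RefSeq window of *Sod2* was the only 1 of the 8 windows found for the 10 genes to hold the STAT motif, beside 8.29% of all windows. It also held a kappaB consensus, beside 8.46% of all windows, as did the windows of *Gpx1* and *Nox1*.

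*Hmox1* showed the widest range of the 10 genes. Its brightest probe (chromosome 8, 77624207 to 77624266) had scaled signals of 0.347 in WT vehicle, 0.379 in KO vehicle, 4.98 in WT AOM and 0.0965 in KO AOM. The vehicle pools were alike, WT AOM was 14.4-fold above WT vehicle (3.84 ± 0.20) and KO AOM was 3.93-fold below KO vehicle (-1.97 ± 0.21). Between the AOM pools this made a 51.7-fold difference, a log2 ratio of -5.69 ± 0.21 at percentile 0.363 of all genes.

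The second *Hmox1* probe lies nearer to the start of the transcript (chromosome 8, 77620797 to 77620856, listed start 324 against 1290) and is printed because it agreed on the order of the AOM pools and gave smaller differences.
Hmox1 probe, listed start 324: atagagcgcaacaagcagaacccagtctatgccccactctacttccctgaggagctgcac
Its scaled signals were 0.136, 0.116, 0.408 and 0.0774. WT AOM was again highest, 3.00-fold above WT vehicle (1.59 ± 0.21) and 5.28-fold above KO AOM (-2.40 ± 0.22 for KO over WT). KO AOM was again below KO vehicle, but at -0.59 ± 0.24 short of 2-fold. The unscaled signals of this probe had the opposite order, 75.5 in KO vehicle and 90.5 in KO AOM.

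The summed markers of cells that handle heme shared the peak of *Hmox1* in WT AOM, as did other lists, such as the Wnt targets and Paneth cell markers. The macrophage sums were those given with *Nos2*. The summed scaled signals of the erythroid markers were 8.22, 11.5, 37.3 and 8.67 in WT vehicle, KO vehicle, WT AOM and KO AOM, with *Hba-a1*, a hemoglobin gene, at 6.08, 7.70, 26.5 and 5.55. In KO AOM, where *Hmox1* was lowest, the erythroid sum was within the range of the vehicle pools and the macrophage sum just below it. Single markers went both ways there. *Hba-a1* and *C1qa* (0.782 against 1.18 and 1.71) were below both vehicle pools. *Alas2* (0.215 against 0.0812 and 0.0904) and *Mrc1* were above both. The part of these cells in the *Hmox1* values was not tested.

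*Nqo1*, the other NRF2 target, went another way. It had 1.03 in WT vehicle, 1.40 in KO vehicle, 0.361 in WT AOM and 0.465 in KO AOM (chromosome 8, 109912440 to 109912499). Both AOM pools were over 2-fold below the vehicle pools, 2.84-fold in WT (-1.51 ± 0.20) and 3.02-fold in KO (-1.59 ± 0.20). KO was above WT under both treatments, by 0.45 ± 0.20 and 0.37 ± 0.20, the latter turning to -0.59 with scaling by the epithelium markers. Where WT AOM had the highest *Hmox1* signal, it thus had the lowest *Nqo1* signal. The promoter window of *Nqo1* (GRCm38.p6, minus strand, chr8:107403156-107403455) is shown as the other of the 8 windows that holds TATAAA, in capitals, from 29 to 24 bases before the start site.
Nqo1 promoter window: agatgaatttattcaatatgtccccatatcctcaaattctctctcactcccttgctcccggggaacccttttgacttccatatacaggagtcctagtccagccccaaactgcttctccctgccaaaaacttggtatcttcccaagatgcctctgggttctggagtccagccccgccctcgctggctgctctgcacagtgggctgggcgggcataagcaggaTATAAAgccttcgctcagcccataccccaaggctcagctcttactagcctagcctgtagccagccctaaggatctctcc
The antioxidant response core TGACNNNGC was in none of the 8 windows, which says only that these letters are absent from the 300 bases shown or searched for each gene.

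**Figure D2:**
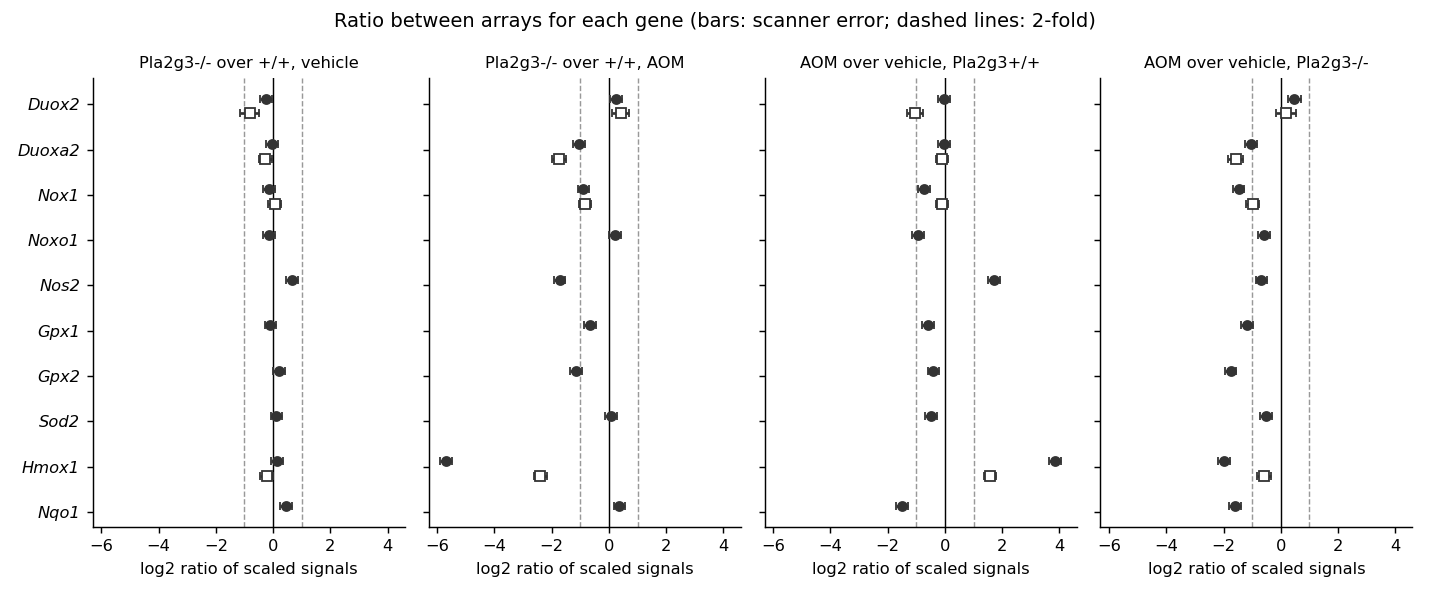
Log2 ratio of scaled signals for each gene in the 4 comparisons, with the brightest probe as a filled circle and the other probe as an open square. Bars are the scanner error and dashed lines mark 2-fold. With vehicle no brightest probe passes 2-fold, and after AOM *Hmox1* reaches -5.69 between KO and WT.

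Genes of the same pathways were taken from 8 lists, and their counts past 2-fold are read beside the shares of all genes. Between KO and WT with vehicle those shares were 1.92% higher and 1.32% lower. Among 18 genes for glutathione synthesis, NADPH supply and other NRF2 targets, none of the 17 with a value passed 2-fold between KO and WT with vehicle. After AOM, 1 of 18 was over 2-fold higher and 3 lower in KO than in WT, beside 15.1% and 12.9% of all genes. The list median was -0.16. *Slc7a11*, the cystine transporter, had the widest difference and followed *Hmox1*. It was above background in WT AOM alone, at least 25.7-fold above WT vehicle and at least 29.2-fold above KO AOM. *Osgin1* was 2.86-fold higher in KO AOM than in WT AOM, and *Blvrb*, biliverdin reductase B, 2.52-fold lower.

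Of 6 NRF2 regulators, the factor itself, *Nfe2l2*, had 8.06, 7.71, 6.34 and 7.20 in WT vehicle, KO vehicle, WT AOM and KO AOM, and its inhibitor *Keap1* 3.18, 3.32, 2.31 and 2.41. Only the partner *Mafg* passed 2-fold anywhere. It was 3.76-fold higher in WT AOM than in WT vehicle, beside 15.1% of all genes past 2-fold on that side. In KO AOM it was 2.44-fold lower than in WT AOM, beside 12.9%. The 5 genes of a list for heme and iron export passed 2-fold in no comparison. They were *Hmox2* and *Blvra* of heme breakdown, *Alas1* and *Fech* of heme synthesis and the iron exporter *Slc40a1*, and *Hmox2* had a KO/WT log2 ratio of -0.01 after AOM.

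Of 12 oxidases and subunits, 6 of 11 with a value were over 2-fold lower in KO AOM than in WT AOM, beside 12.9% of all genes. Only *Duox1* was higher, beside 15.1%, and the list median was -1.10. The lower ones included parts of the phagocyte oxidase, *Ncf1* (-1.84), *Rac2* (-2.22) and *Cyba* (-1.69). Of 21 genes for superoxide and peroxide removal, 2 were higher and 3 lower, beside 15.1% and 12.9% of all genes. Their median was -0.10. *Prdx6*, a peroxiredoxin, was 4.38-fold higher in KO AOM, and *Gpx7* (-1.73) and *Gpx3* (-1.59), other members of the peroxidase family, were lower. In WT AOM relative to WT vehicle, 7 of these 21 genes were over 2-fold lower and 3 higher, beside 22.4% and 15.1% of all genes. Among them were catalase (*Cat*, -2.01) and *Prdx6* (-2.12) on the lower side and the extracellular dismutase *Sod3* (2.12) on the higher.

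Around *Nos2*, 11 genes of nitric oxide and arginine use had a value. Of these, 5 were over 2-fold lower in KO AOM than in WT AOM and none higher, beside 12.9% and 15.1% of all genes. *Arg1*, which competes with NOS2 for arginine, had scaled signals of 0.0529, 0.0883, 1.67 and 0.0580 in WT vehicle, KO vehicle, WT AOM and KO AOM, the same order as *Nos2* for the highest pool. *Arg2* was lowest in KO AOM, 9.40-fold below KO vehicle. Of 12 genes known to induce *Nos2* or *Duox2*, 6 were over 2-fold lower in KO AOM than in WT AOM and none higher. The same shares of all genes stand beside these counts, and the list median was -1.18. *Il1b* was 71.8-fold and *Tnf* 17.2-fold lower, and *Ifng* at least 4.53-fold lower. With vehicle, *Il22* was 3.35-fold and *Il17a* at least 2.33-fold higher in KO than in WT, while *Duox2* was not. Both cytokine probes were near the floor. The unscaled signals of *Il22* were 13.7 in WT and 46.2 in KO, and *Il17a* was below background in WT and at 25.1 in KO. The lowest signals well above background were 10.7 on the WT and 14.8 on the KO array.

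Among the peroxidases of leukocytes and secretions, *Lpo*, lactoperoxidase, had scaled signals of 0.850, 1.13, 2.97 and 13.0 in WT vehicle, KO vehicle, WT AOM and KO AOM, so that KO AOM was 4.37-fold above WT AOM and 11.4-fold above KO vehicle. *Mpo*, the myeloperoxidase of neutrophils, was 4.18-fold lower in KO AOM than in WT AOM and not above background with vehicle. Of 10 neutrophil markers, 6 were over 2-fold lower in KO AOM than in WT AOM and 2 higher, beside 12.9% and 15.1% of all genes. Their median log2 ratio was -2.88, bounds included. Their summed scaled signals, 95.6 in WT AOM and 71.7 in KO AOM, hide this. *Csf3r*, which did not pass 2-fold, gave 44.4 and 53.8 of these sums. *S100a9* was 92.4-fold lower, *Mmp8* and *Mmp9* were above background in WT AOM alone, and *Ly6g* was 2.86-fold and *Ltf*, lactoferrin, 27.4-fold higher. *Ltf*, which glands and leukocytes both make, and the sum of the squamous epithelium markers, given above, were highest in KO AOM, as were *Lpo*, *Duox1* and *Duoxa1*, and their part in those values was not tested.

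**Figure D3:**
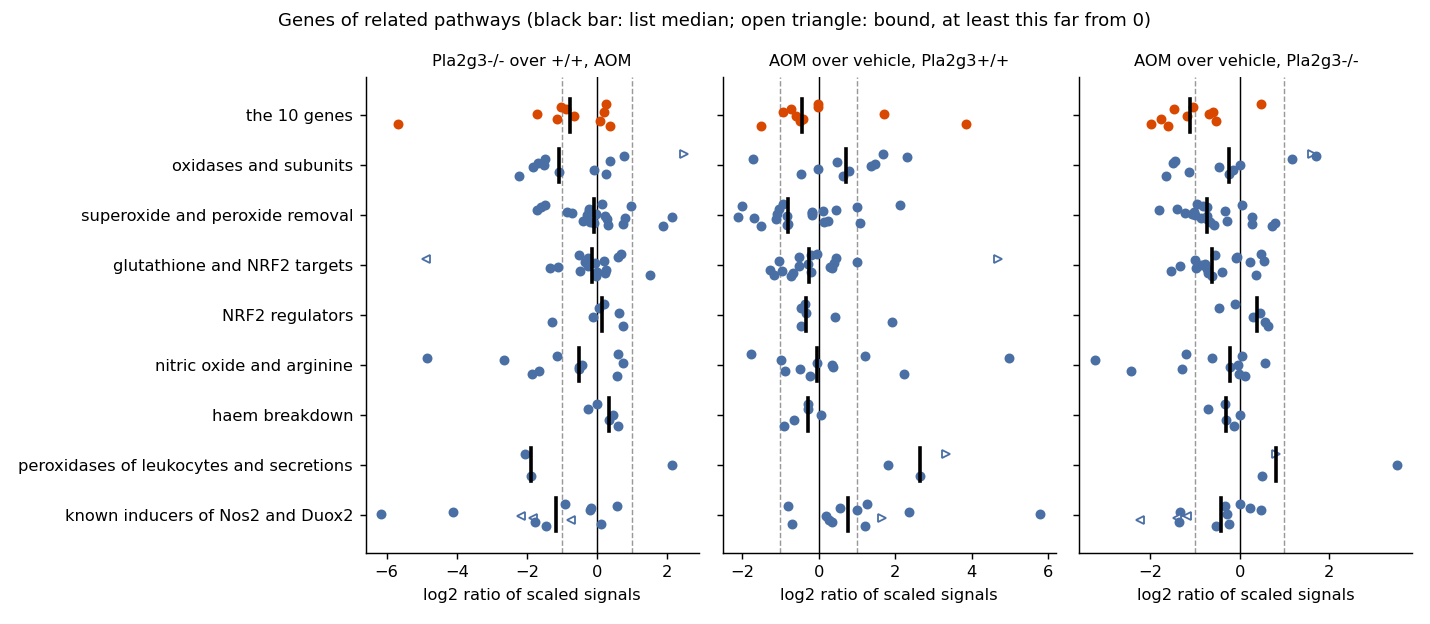
Log2 ratio of scaled signals for the 10 genes (orange) and the genes of the 8 related lists (blue) in 3 comparisons, 1 point per gene. Black bars are medians, open triangles bounds, and dashed lines 2-fold. Between the AOM pools the medians of the oxidase list (-1.10) and of the inducer list (-1.18) lie below 0, and those of the removal list (-0.10) and of NRF2 regulators (0.12) close to it.

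The patterns of the 10 genes over the 4 arrays were compared by the distance between their log2 values after each gene's mean was removed. Among the 45 pairs, the nearest were *Nox1* with *Gpx1* (0.26), *Nox1* with *Gpx2* (0.31) and *Noxo1* with *Sod2* (0.32), and the farthest was *Hmox1* with *Nqo1* (4.96). *Duox2* lay 1.20 from *Duoxa2*. Over all 14787 genes above background on every array, the nearest to *Nos2* were *Fcgr3*, an Fc receptor of macrophages and other leukocytes (0.15), *Arhgap25* (0.17) and *Sphk1* (0.17). Those nearest to *Hmox1* were farther away, *Mc3r* (0.22), *Irx4* (0.36) and *Wfdc18* (0.45). Those nearest to *Nox1* were *Pcbd1* (0.0054), *Gm5602* and *Isg20*, and those nearest to *Duoxa2* were *Nutf2* (0.031), *Rgs14* and *Rilpl2*. The 4 points, on arrays that share pools and scaling, give such distances little weight, and they are given as a description.

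How the AOM and vehicle arrays are set against each other decided several of these values. Without scaling between arrays, the median log2 ratio of all genes was 0.87 for AOM over vehicle in WT and 0.76 in KO, and 45.1% of genes passed 2-fold upward and 7.17% downward in WT, and 38.1% and 3.72% in KO. With scaling by the spike-in controls these shares were 49.5% and 6.45% in WT and 31.8% and 4.34% in KO, and 11.2% and 18.0% between the AOM pools. With scaling by the epithelium markers they were 46.8% and 6.84% in WT, 13.1% and 11.4% in KO, and 6.02% and 45.8% between the AOM pools. With quantile normalization alone they were 17.5% and 17.7% in WT and 10.97% and 11.6% in KO. With normexp and quantile normalization they were 10.3% and 9.68% in WT and 5.38% and 5.14% in KO. For AOM over vehicle, the sign of *Noxo1* and *Sod2* in both genotypes, of *Duox2*, *Duoxa2*, *Nox1*, *Gpx1* and *Gpx2* in WT and of *Nos2* in KO depended on this choice or on the probe. *Hmox1* kept a positive ratio in WT (1.59 to 4.98) and a negative one in KO (-1.99 to -0.59) under every alternative tried. Other scalings were tried on the brightest probe only, however. The unscaled signals of the dimmer *Hmox1* probe had the opposite order in KO, 75.5 with vehicle and 90.5 with AOM. *Nos2* stayed between 1.36 and 2.85 in WT. Between KO AOM and WT AOM, *Hmox1* (-6.64 to -2.40), *Nos2* (-2.68 to -1.42), *Gpx2* (-2.09 to -1.10), *Duoxa2* (-1.99 to -0.995), *Nox1* (-1.84 to -0.63) and *Gpx1* (-1.62 to -0.63) stayed below 0 under every alternative tried, and the signs of *Duox2*, *Noxo1*, *Sod2* and *Nqo1* did not stay the same.

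**Figure D4:**
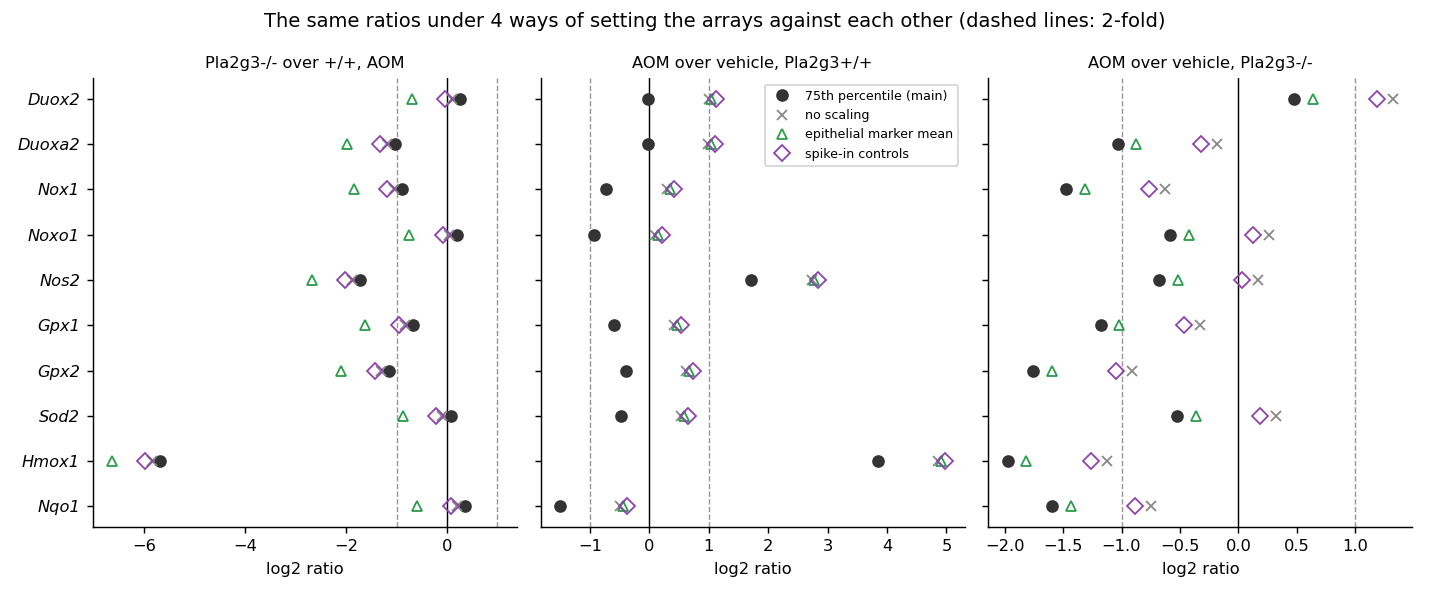
Log2 ratio of the brightest probe of each gene in 3 comparisons under 4 ways of setting arrays against each other, by the 75th percentile (filled circles), without scaling (crosses), by the mean of the 10 epithelium markers (triangles) and by the spike-in controls (diamonds). Dashed lines mark 2-fold. *Hmox1* keeps its direction in each panel, whereas *Duox2* and *Duoxa2* move from about 0 to past 2-fold for AOM over vehicle in WT with the epithelium markers and the spike-in controls. Under these scalings 46.8% and 49.5% of all genes pass 2-fold on the higher side there.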

How the data were processed

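The study hybridized RNA of 4 pools of mouse colon to 1-color (Cy3) Agilent Whole Mouse Genome arrays on 1 slide, after labeling of 27.7 ng of RNA from each. The authors deposited, per array, the spot intensity processed by Agilent Feature Extraction 11.5.1.1 (per the submitters' processing notes), corrected for background within the array and not scaled between arrays, with its error and background call. The deposited table of the series is a ratio, each intensity over the 75th percentile of its array, and equaled the scanner values after that division.

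Here, control spots and outlier spots were left out, log2 intensities of replicate spots were averaged, and the 75th percentile of the array was subtracted (Python 3.11.15, pandas 2.3.3, numpy 2.4.6). Probes were named through RefSeq accessions or symbols of GRCm38.p6, used for names and promoter windows, and 31367 of 39423 probes matched 22368 genes. Probe coordinates are the array files' own, on mm9. Where a gene has several probes the brightest, by mean log2 signal, stands for it, and all probes of the 10 genes are given. A probe below background on 1 array of a pair entered as a bound ("at least"), against the lowest signal well above background on that array or its own signal if higher. The scanner errors of the arrays of a pair were combined. Precision is limited by the number of arrays, and none of the comparisons could be tested. The ratio step was tested on simulated data. The members, lists, motifs and alternatives were chosen with earlier results of these data known. Named genes were all members and their probes, up to 4 genes per related list with the largest ratio in the comparison described, the 3 genes nearest in pattern to a member, abundant genes of a discussed marker list and *Pla2g3*. Other genes named, such as *Noxa1*, *Keap1* and *Hmox2*, were chosen for their function. Of the 10 genes, 8 have a promoter window in the RefSeq table used. Alternatives were other scalings (none, median, quantile, epithelium markers, spike-in controls), normexp with an offset of 50 (limma 3.58.1 in R 4.3.3) with quantile normalization, other choices of probe, filters on dim probes, the deposited table and thresholds of 1.5-fold and 4-fold. The spike-in scaling was added after the data had been seen.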

Additional observations from a re-analysis of the deposited data

Results flagged for a closer look

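*Hmox1* was picked out because its AOM over vehicle ratio passed 2-fold in opposite directions in the genotypes. Its log2 ratio was 3.845 in WT and -1.973 in KO on the brightest probe. The other probe gave 1.59 in WT and -0.59 in KO, the same signs with a ratio in KO that does not pass 2-fold. Before scaling, the signals of that probe were 75.5 in KO vehicle and 90.5 in KO AOM, the opposite order. The difference between the genotypes was not tested, since each pool was measured on 1 array.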

How the results depend on the processing

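Of 440 ratios recomputed for the 10 genes in the 4 comparisons, 408 stayed on their side of 2-fold (some of those short of 2-fold with a changed sign, as given in the report), 21 no longer passed it, 7 newly passed it in the same direction and 4 passed it in the opposite direction. The 4 are *Duox2* and *Duoxa2* for AOM over vehicle in WT, which became 1.043 and 1.033 with scaling by the epithelium markers and 1.116 and 1.106 with the spike-in controls, from -0.02 and -0.03. The cause was not tested. Many of the 440 ratios could not move, so the 408 overstate how stable the values are. The deposited table and the filters on dim probes returned the main values for 40 of 40 ratios each. That table equals the scaled signals, and all probes of the 10 genes were above background. Genes with 1 probe could not change under other choices of probe.

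Counts of the 10 genes past 2-fold that moved by over 1.5 times are as follows. In WT, the count lower went from 1 to 0 without scaling (beside 7.17% of all genes), with the epithelium markers (6.84%) and with the spike-in controls (6.45%). It went to 2 with the dimmest probe (21.8%). The count higher went from 2 to 4 with the epithelium markers (beside 46.8% of all genes) and with the spike-in controls (49.5%), with *Duox2* and *Duoxa2* added. In KO, the count lower went from 6 to 1 without scaling (*Hmox1*, beside 3.72% of all genes), 2 with the spike-in controls (4.34%) and 3 with quantile normalization (11.6%). The count higher went from 0 to 1 (*Duox2*) without scaling (beside 38.1% of all genes) and with the spike-in controls (31.8%). At 1.5-fold, 1 gene (*Nos2*) was higher in KO with vehicle, beside 4.04% of all genes, and 4 were lower with AOM in WT, beside 35.4%. At 4-fold, 1 gene (*Hmox1*) was lower in KO than in WT after AOM (4.97% of all genes), 1 (*Hmox1*) was higher (4.97%) and 0 lower (7.23%) with AOM in WT, and 0 were lower with AOM in KO (3.08%). *Duoxa2* between the AOM pools was at -0.995 with scaling by the median, just short of 2-fold.

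No paired analysis was possible because each group is 1 array. All probes of the 10 genes were above background, though some were dim. The unscaled signals of *Duox2* were 94.9 to 238 on the brightest probe and 23.4 to 47.6 on the other, and these probes disagreed. Pooling leaves the spread between mice unknown.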
